A study of Mus musculus with 9 samples.

Results

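Peg3, Zim1, Igf2, H19, Dlk1, Cdkn1c, Grb10, Mest, Plagl1 and Ndn are imprinted genes with roles in growth, and 9 of these 10 genes were measured by a transcript cluster that the annotation of the array gave to that gene alone. A transcript cluster is the set of probes of a gene that the array summarises into 1 value, and the table held 33323 of them, 21789 with 1 gene symbol. Each of the 9 genes had 1 such cluster. H19 had none and was not analysed here. The genes were chosen by name, Peg3 and Zim1 because the study had picked both as transcription factors from the contrast of beating, non-beating and round cells, so their difference is described below with no test. The other 7 genes were named as growth genes under imprinting and were tested. These genes and the lists below were chosen with earlier results of these data known. Their p-values are therefore not those of genes picked without sight of the values.

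Stromal vascular fraction (SVF) cells, the mixed non-adipocyte cells of fat, were taken from the subcutaneous adipose tissue of C57BL6/J mice aged 10 weeks and kept in primary culture in a minimal medium without any other treatment, where some colonies began to contract on their own. On day 28 these colonies were picked by hand and combined as the beating SVF group (n = 4 arrays), and the remaining cells of the same dishes made up the non-beating SVF group (n = 4 arrays). On day 14, 6 round cells were picked with an automated cell picker and combined into a single pool on 1 array, with no replicate. All values were log2 signals of an Affymetrix Mouse Gene 1.0 ST array. Every array therefore carried RNA of untreated cells of 1 strain and age, and a beating sample combined the hand-picked colonies of several dishes, which could hold neighbouring cells of other types. The labels do not say that replicates came from separate mice, so p-values measured the spread between these samples. In such bulk samples, fewer cells of a type and less RNA per cell cannot be told apart.

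An imprinted gene is expressed mainly from the chromosome inherited from 1 parent. In many cases DNA methylation set in the egg or the sperm and kept at a control region in later cells brings this about. Many of these genes act in opposite directions on growth before birth, and several lie together in domains that share 1 control region. The probes of the array cannot tell the maternal from the paternal transcript, so no value here speaks to the imprint itself.

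Peg3 and Zim1 are neighbours on mouse chromosome 7. Both encode zinc finger proteins, and in the mouse Peg3 is expressed from the paternal and Zim1 from the maternal chromosome. In the RefSeq annotation (assembly GRCm38.p6) the genes follow each other in the order Zim2, Zim1, Peg3, Peg3os and Usp29. The sequence around the start of transcription is shown for Peg3, Zim1 and Igf2, the 3 of the 9 genes with the highest differences in the comparison, with the CG dinucleotides marked because they are the sites at which mammalian DNA is methylated. The windows are start sites, which need not be the control region of a domain. Each window has 300 bases around the start given by RefSeq, most of them before it, is written 5′ to 3′ on the minus strand from which the gene is read, and has each CG in capitals. The windows lie at chr7:6730370-6730669 for Peg3, chr7:6696383-6696682 for Zim1 and chr7:142658755-142659054 for Igf2, the last being the one with most CG dinucleotides of 4 windows for that gene.
Peg3: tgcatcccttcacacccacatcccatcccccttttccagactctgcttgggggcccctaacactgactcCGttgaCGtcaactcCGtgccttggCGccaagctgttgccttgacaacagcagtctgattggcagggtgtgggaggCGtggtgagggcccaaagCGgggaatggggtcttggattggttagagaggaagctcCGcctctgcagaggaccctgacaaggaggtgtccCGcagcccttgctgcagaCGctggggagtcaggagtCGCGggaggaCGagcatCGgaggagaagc
Zim1: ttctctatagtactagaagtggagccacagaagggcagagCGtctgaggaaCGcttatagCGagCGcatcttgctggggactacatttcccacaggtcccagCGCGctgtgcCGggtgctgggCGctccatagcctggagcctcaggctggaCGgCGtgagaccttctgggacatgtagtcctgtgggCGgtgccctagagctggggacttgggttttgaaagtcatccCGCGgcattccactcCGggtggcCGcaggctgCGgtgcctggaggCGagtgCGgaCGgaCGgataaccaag
Igf2: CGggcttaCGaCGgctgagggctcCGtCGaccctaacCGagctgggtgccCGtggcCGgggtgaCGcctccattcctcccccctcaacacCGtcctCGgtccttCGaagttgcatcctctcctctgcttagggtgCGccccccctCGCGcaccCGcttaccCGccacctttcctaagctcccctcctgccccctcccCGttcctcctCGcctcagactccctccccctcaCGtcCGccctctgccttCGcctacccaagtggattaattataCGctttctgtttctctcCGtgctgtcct

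The Peg3 window held 13 CG dinucleotides, the Zim1 window 20 and this Igf2 window 24, whereas the median of 32851 windows of the same length was 7 and the upper quartile 20. The Igf2 window was chosen for its count, and the other Igf2 windows held 7, 14 and 2. Which Igf2 start was used in these cells was not tested. Of the 10 genes, 8 had 14 windows in all, and 4 of these 14 reached the upper quartile. A pair of the Mest windows overlap almost wholly. The E-box CANNTG (its own reverse complement), the letters bound by MyoD1 and other helix-loop-helix factors, was present in 7 of 14 windows, against 72.3% of all windows, and was absent from those of Peg3 and Zim1. A MEF2 motif was found in 0 of 14 windows and in 3.19% of all windows. The Peg3 window shared 263 bases with the window of Usp29, which is read from the other strand. Methylation was not measured in these samples.

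The zinc finger genes came first in the comparison. The Peg3 log2 signal (cluster 10559796) was 7.11, 8.01, 6.86 and 6.85 in beating replicates 1 to 4 and 4.99, 5.11, 5.21 and 4.98 in the non-beating replicates. All 4 beating arrays lay above all 4 non-beating arrays. The group means were 7.21 ± 0.55 and 5.07 ± 0.11 (SD, n = 4 each), a difference of 2.14 on the log2 scale, or a 4.40-fold ratio of signals. Such a ratio includes the background signal of the probes in both groups.

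The Zim1 log2 signal (cluster 10559790) was 4.91, 5.93, 4.25 and 4.43 in the beating replicates and 2.64, 2.81, 2.76 and 2.70 in the non-beating replicates. The groups again did not overlap, and beating replicate 2 was the highest array for both genes. The means were 4.88 ± 0.76 and 2.73 ± 0.07 (SD, n = 4 each), a difference of 2.15 or a 4.45-fold ratio. With any 1 array removed, the difference lay between 1.87 and 2.26 for Peg3 and between 1.80 and 2.36 for Zim1.

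Within the beating group, replicate 2 was the highest and replicate 1 the next for both genes. Replicates 3 and 4 were the lowest, in opposite order. Replicate 2 was also the highest beating array for Igf2, Plagl1, Myod1 and Myog, though not for the other members or for Tnnt2, Actc1, Ttn and Actn2. When every gene was centred on its own mean of the 8 arrays, Zim1 was the nearest of 19937 genes to Peg3, with a mean absolute difference of 0.12 on the log2 scale. The next were Cacng1 at 0.16, Sox11 at 0.18, Itgb1bp2 at 0.19 and Arpp21 at 0.20. Igf2, which had a larger difference between the groups, ranked 11988 at 1.09. This likeness includes the group difference by which the study had picked Peg3 and Zim1, and it is given as a description over 8 arrays.

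**Figure D1:**
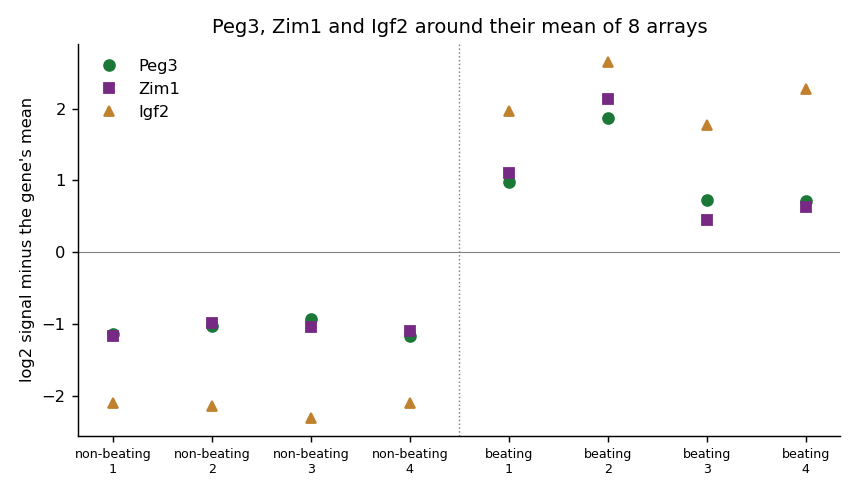
Log2 signal of Peg3 (circles), Zim1 (squares) and Igf2 (triangles) minus the gene's own mean of the 8 arrays, for the 4 non-beating (left of the dotted line) and 4 beating replicates (right). Peg3 and Zim1 points lie on or near each other on every array, and Igf2 lies farther from 0 in both groups.

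Usp29, a deubiquitinase gene that in the mouse is read from the paternal chromosome away from the same control region as Peg3, gave 2.06 to 2.38 in beating and 2.03 to 2.16 in non-beating SVF. The groups overlapped, the difference was 0.08 with a 95% interval from -0.10 to 0.27, and the adjusted p was 0.621. Its cluster was in the dimmer part of the table. The other 3 genes named for this domain, Zim2, Zim3 and Zfp264, had no cluster of 1 symbol and were not analysed here.

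Across the 7 members tested, 1 gene rose and 2 fell in beating SVF by limma at a Benjamini-Hochberg adjusted p under 0.05, and 4 did not pass. Over all clusters of the table, 2.82% were called higher and 3.34% lower in beating SVF. All 7 genes were above the median level of the table, and brighter clusters were called more often. With the dim clusters left out, 1078 of 16662 were called higher and 1594 lower. Of those 7 genes, 1 lay above and 2 lay below the non-beating arrays without overlap, and over all clusters this held for 5.98% and 8.24%. The median difference of the 7 genes was -0.18 and that of all clusters 0.01.

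**Figure D2:**
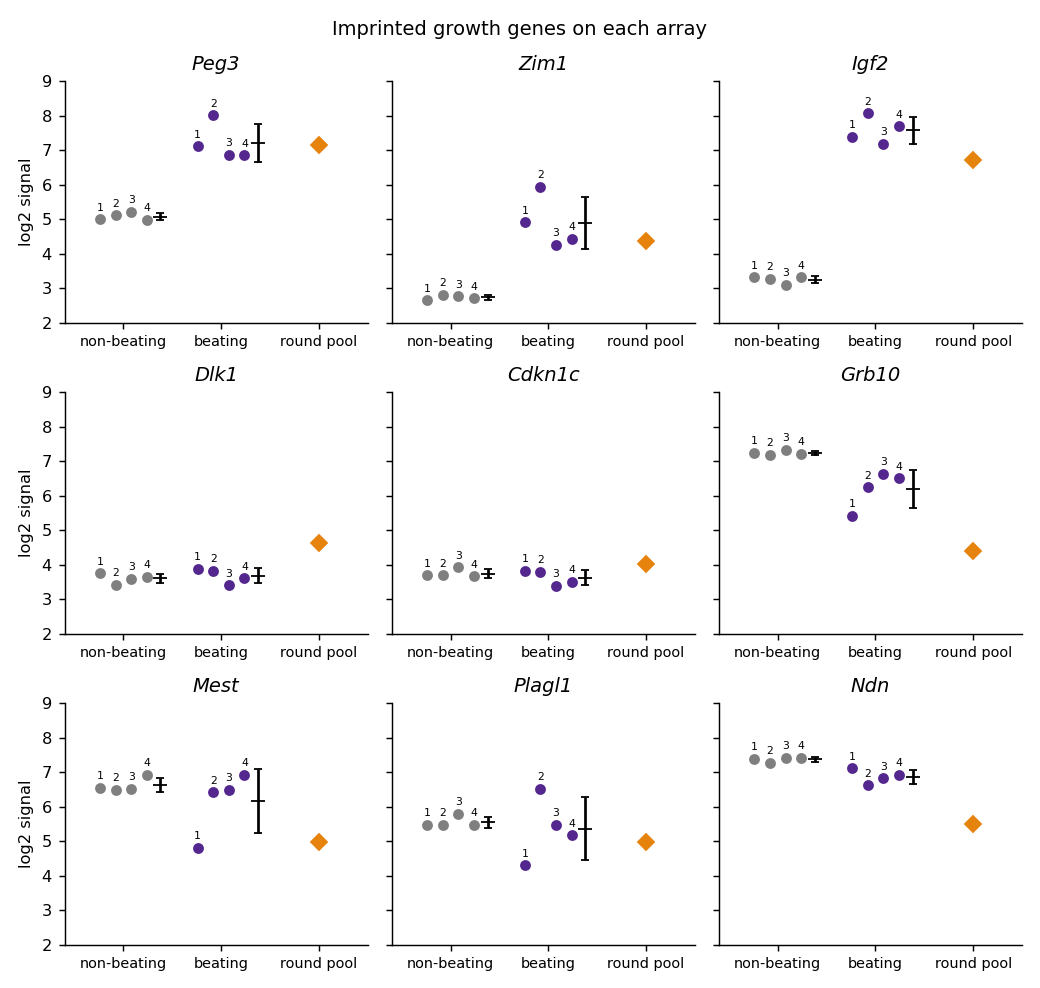
Log2 signal (vertical axis) of the 9 genes in the 4 non-beating replicates (grey), the 4 beating replicates (purple) and the pool of 6 round cells (orange diamond), with the replicate number above each point. Black bars are the mean ± SD of 4 arrays. Peg3, Zim1 and Igf2 lie apart and upward in beating SVF, Grb10 and Ndn apart and downward, and the groups overlap in the remaining 4 genes.

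Igf2 encodes insulin-like growth factor 2, a secreted ligand that drives growth before birth and is made by differentiating muscle cells. It had the largest difference of the members. The Igf2 log2 signal (cluster 10569344) was 7.38, 8.06, 7.18 and 7.68 in the beating replicates and 3.31, 3.27, 3.1 and 3.31 in the non-beating replicates. The highest non-beating array lay far below the lowest beating array. The means were 7.57 ± 0.39 and 3.25 ± 0.10 (SD, n = 4 each). Igf2 rose by 4.33 on the log2 scale (SE 0.18, 95% interval 3.92 to 4.74), a 20.1-fold ratio of signals, with a limma adjusted p of 6.55e-06. The call was kept in all 17 alternative settings, with differences between 4.17 and 4.46.

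Markers of striated muscle moved with Igf2, Peg3 and Zim1. The log2 of the summed signal of Myod1, Myog, Tnnt2, Actc1, Ttn and Actn2 was 12.51 to 12.70 in beating and 6.55 to 7.26 in non-beating SVF, and 6 of 6 genes were called higher. The summed signal of the fibroblast markers Col1a1, Col3a1, Pdgfra, Thy1, Dpt and Lum was 9.92 to 10.39 against 11.15 to 12.16, with 2 of 6 called lower, and that of the 6 macrophage markers was 5.91 to 8.22 against 8.43 to 10.16, with 1 called lower. For the 6 adipocyte markers it was 7.26 to 8.0 against 8.25 to 8.85, with 2 called lower. Not every marker followed its sum. Col1a1 of the fibroblast list was higher in beating SVF by 0.46 (limma adjusted p = 0.371). Lep of the adipocyte list was higher by 0.21 (limma adjusted p = 0.691). The part of these cell types in the differences of the imprinted genes was not tested.

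In RefSeq the hairpin of miR-483 lies inside Igf2 and that of miR-335 inside Mest. Their mature sequences are shown because each hairpin had a cluster of its own next to its host gene. The seed (bases 2 to 8, counted from the 5′ end) is in capitals, and the 4 seeds differ. The miR-483 arms lie at chr7:142654968-142654989 (5p) and chr7:142654932-142654952 (3p) on the minus strand, and the miR-335 arms at chr6:30741314-30741336 (5p) and chr6:30741354-30741375 (3p) on the plus strand of GRCm38.p6.
miR-483-5p: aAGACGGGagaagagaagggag
miR-483-3p: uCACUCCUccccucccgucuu
miR-335-5p: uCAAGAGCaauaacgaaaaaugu
miR-335-3p: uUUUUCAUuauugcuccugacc

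The Mir483 cluster did not follow Igf2. Its log2 signal was 5.59, 5.48, 5.48 and 4.91 in beating and 5.43, 5.36, 5.48 and 5.38 in non-beating SVF, with overlapping groups. The difference was -0.05 (SE 0.14, 95% interval -0.38 to 0.28, adjusted p = 0.894), whereas Igf2 differed by 4.33. The Mir335 cluster gave 3.32 to 3.51 in beating and 3.19 to 3.35 in non-beating SVF, a difference of 0.11 with an adjusted p of 0.430. Whether these clusters measured the hairpin, the host transcript or the mature miRNA was not tested.

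Grb10 and Ndn were the members that fell. Grb10 is an adaptor protein that binds the insulin and IGF receptors and restrains their signalling and growth. The Grb10 log2 signal (cluster 10384398) was 5.42, 6.24, 6.63 and 6.51 in the beating replicates and 7.24, 7.19, 7.32 and 7.22 in the non-beating replicates. The groups did not overlap, and the non-beating arrays lay within 0.14 of each other. The means were 6.20 ± 0.55 and 7.24 ± 0.06 (SD, n = 4 each). Grb10 fell by 1.04 on the log2 scale (SE 0.24, 95% interval -1.60 to -0.48), a 2.06-fold ratio, with an adjusted p of 0.0452. The call was lost without beating replicate 2 or 4 and without any 1 of the 4 non-beating replicates, with adjusted p between 0.0542 and 0.122, while the difference stayed between -1.19 and -0.78 over all arrays left out. It was also lost with the replicate number as a block (0.0746) and in the methods' two-sample comparison (0.128).

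Ndn encodes necdin, a MAGE family protein that slows the cell cycle and that in the mouse also acts in muscle differentiation. The Ndn log2 signal (cluster 10553833) was 7.12, 6.62, 6.82 and 6.92 in the beating replicates and 7.40, 7.28, 7.41 and 7.42 in the non-beating replicates. The groups did not overlap, with beating replicate 1 nearest to the non-beating arrays. The means were 6.87 ± 0.21 and 7.38 ± 0.07 (SD, n = 4 each). Ndn fell by 0.51 on the log2 scale (SE 0.10, 95% interval -0.75 to -0.27), a 1.42-fold ratio, with an adjusted p of 0.0301. The call was lost without beating replicate 3 or 4, without any 1 non-beating replicate (adjusted p between 0.0538 and 0.0870) and after quantile normalisation (0.0724). It was also lost with the replicate number as a block (0.0516) and in the methods' two-sample comparison (0.0822).

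Of the genes beside Grb10 and Ndn, 1 passed. Cobl, an actin nucleator that lies beside Grb10, rose by 1.60 (SE 0.14, adjusted p = 0.000519), from a mean of 4.01 ± 0.17 to 5.61 ± 0.25 (SD, n = 4 each). Ddc, the decarboxylase gene on the other side of Grb10, differed by 0.16 (adjusted p = 0.311). Of 4 genes measured in the domain of Ndn, 4 did not pass, with differences between -0.41 and 0.50.

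**Figure D3:**
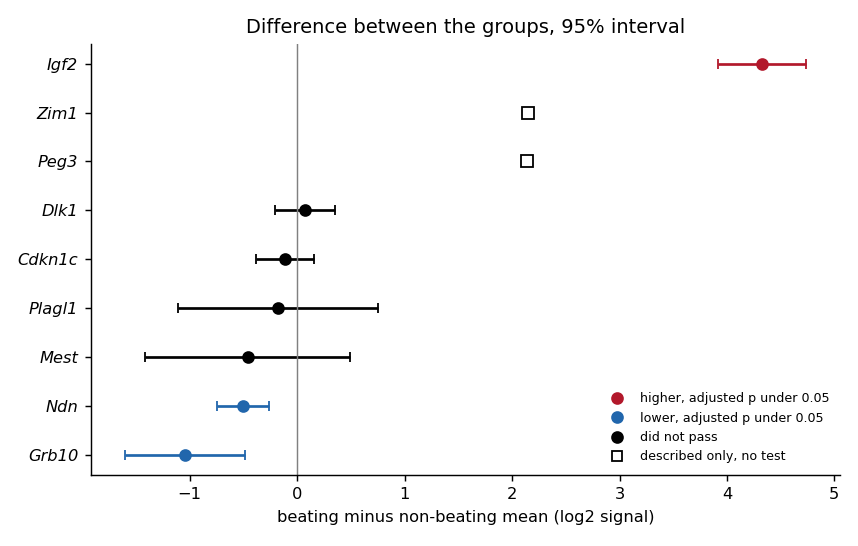
Difference between the beating and the non-beating mean in log2 signal (horizontal axis) for the 9 genes, with the 95% interval of the limma fit, not adjusted for the number of tests. Igf2 stands at 4.33, Grb10 at -1.04 and Ndn at -0.51 with intervals off 0, and open squares for Peg3 and Zim1 carry no interval because both were picked on this contrast.

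Mest and Plagl1 varied more within beating SVF than between the groups. Mest encodes a hydrolase-like protein found in embryonic mesoderm and in growing fat cells. The Mest log2 signal (cluster 10537062) was 4.81, 6.42, 6.50 and 6.93 in the beating replicates and 6.54, 6.50, 6.52 and 6.93 in the non-beating replicates. Only beating replicate 1 lay apart from the other 7 arrays. The difference was -0.46 (SE 0.41, 95% interval -1.42 to 0.50, adjusted p = 0.602), and it was -0.01 without beating replicate 1.

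Plagl1 is a zinc finger transcription factor that in the mouse regulates other genes of this kind, Igf2 and H19 among them. The Plagl1 log2 signal (cluster 10361771) was 4.31, 6.52, 5.48 and 5.18 in the beating replicates and 5.47, 5.48, 5.79 and 5.47 in the non-beating replicates. Beating replicate 1 was the lowest and beating replicate 2 the highest of the 8 arrays. The difference was -0.18 (SE 0.40, 95% interval -1.11 to 0.75, adjusted p = 0.849), and without beating replicate 1 it turned to 0.17.

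Beating replicate 1 also had the least endothelial signal of the 8 arrays compared. The log2 summed signal of Pecam1, Cdh5, Kdr and Tek was 5.47 there, 7.51 to 8.81 in beating replicates 2 to 4 and 7.21 to 8.59 in non-beating SVF. Cdh5, the cadherin of endothelial junctions, was 4.15 in beating replicate 1 and 6.98 to 8.37 in the other beating replicates. Pecam1 was 3.41 there and 5.40 to 6.33 in the other beating replicates. The remaining markers were lowest in beating replicate 2, Kdr at 2.69 and Tek at 2.95, against 2.84 and 3.13 in beating replicate 1. Of these 4 markers, 0 were called between the groups by limma and 0 had an unadjusted p under 0.05. Grb10 was likewise lowest in beating replicate 1, at 5.42 against 6.24 to 6.63 in the other beating replicates, and its difference was -0.78 without that array (adjusted p = 0.00774). Beating replicate 1 was not set apart by endothelial signal alone. Of the 8 arrays it also had the lowest summed fibroblast signal (9.92) and macrophage signal (5.91), and the highest summed striated muscle signal (12.70). The adipocyte sum was lowest in beating replicate 2, at 7.257 against 7.275 in beating replicate 1. The part of endothelial or other cells in the values of Mest, Plagl1 and Grb10 was not tested.

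**Figure D4:**
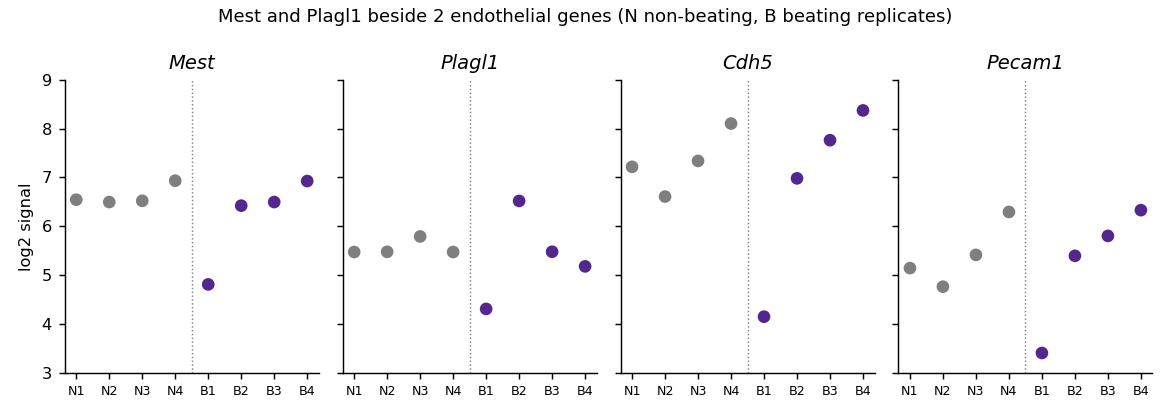
Log2 signal of Mest, Plagl1 and the endothelial genes Cdh5 and Pecam1 (vertical axis) on the non-beating (N1 to N4, grey) and beating (B1 to B4, purple) arrays. Of the 4 endothelial markers these are the 2 that were lowest in beating replicate 1, which is the lowest array in all 4 panels, at 4.81 for Mest, 4.31 for Plagl1, 4.15 for Cdh5 and 3.41 for Pecam1.

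All 9 genes had a wider range over the 4 beating than over the 4 non-beating arrays. The range was 0.45 to 2.21 in beating and 0.14 to 0.44 in non-beating SVF. Of all clusters, 64.1% had the wider range in beating SVF.

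Dlk1 and Cdkn1c, which restrain differentiation and division, did not separate the groups. Dlk1, or preadipocyte factor 1, is a membrane protein that holds preadipocytes back from becoming fat cells. The Dlk1 log2 signal (cluster 10398319) was 3.88, 3.82, 3.40 and 3.60 in beating and 3.75, 3.41, 3.60 and 3.64 in non-beating SVF. The groups overlapped, and the difference was 0.07 (SE 0.12, 95% interval -0.21 to 0.35, adjusted p = 0.792). Cdkn1c encodes p57, an inhibitor of cyclin-dependent kinases. The Cdkn1c log2 signal (cluster 10569429) was 3.83, 3.79, 3.38 and 3.51 in beating and 3.69, 3.69, 3.92 and 3.66 in non-beating SVF. The groups overlapped, and the difference was -0.12 (SE 0.12, 95% interval -0.38 to 0.15, adjusted p = 0.645).

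In the domain of Dlk1, 4 of 4 other genes measured did not pass. Meg3, a long noncoding RNA read from the maternal chromosome, was 6.05, 6.97, 7.09 and 7.36 in beating and 6.45, 5.33, 5.71 and 5.67 in non-beating SVF. Beating replicate 1 lay below non-beating replicate 1, so that the groups overlapped. The difference was 1.08 (SE 0.32, 95% interval 0.34 to 1.82, adjusted p = 0.0987), and without beating replicate 1 it was 1.35 with an adjusted p of 0.0315. Rian, a host transcript of small RNAs, was 3.51 in beating replicate 1, 4.56 to 5.41 in the other beating replicates and 2.13 to 4.02 in non-beating SVF, with a difference of 1.29 (adjusted p = 0.222). Rtl1, a retrotransposon-derived gene read from the paternal chromosome, differed by 0.37 (adjusted p = 0.0684), which became 0.45 (adjusted p = 0.0327) without beating replicate 4. Dio3, which inactivates thyroid hormone, differed by -0.21 (adjusted p = 0.230).

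Outside the 10 genes, 64 further genes were listed as imprinted in the mouse, whatever the tissue or cell type. A cluster of 1 symbol was found for 52 genes. Of these, 5 rose, 5 fell and 42 did not pass, that is 9.62% in each direction against 2.82% and 3.34% of all clusters. The median difference of the 52 genes was 0.05, beside 0.01 for all clusters. In the dimmer part of the table, below the median level of all clusters, lay 22 of the 52. Brighter clusters were called more often, so the shares above are not matched in level. With the dim clusters left out, 5 of the listed genes were called higher and 6 lower, beside 1078 and 1594 of 16662 clusters.

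Zdbf2, a zinc finger gene expressed from the paternal chromosome, came closest to Igf2 in size. It was 6.02, 6.68, 6.44 and 6.34 in beating and 3.33, 2.70, 2.42 and 2.97 in non-beating SVF. The groups did not overlap, and Zdbf2 rose by 3.52 (SE 0.21, adjusted p = 5.42e-05). Beside Cobl, the other genes that rose were Airn, the noncoding RNA of the Igf2r domain, by 1.30 (SE 0.21, adjusted p = 0.0120), Nap1l4, a histone chaperone gene, by 1.24 (SE 0.14, adjusted p = 0.00215), and Mcts2, by 0.70 (SE 0.10, adjusted p = 0.00583). Airn overlaps Igf2r on the other strand, and its call was lost with the replicate number as a block (adjusted p = 0.0520) and in the methods' two-sample comparison (0.0547).

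Htr2a, a serotonin receptor gene, was 5.14 to 5.55 in beating and 6.61 to 7.16 in non-beating SVF and fell by 1.48 (SE 0.13, adjusted p = 0.000704). Dcn, which encodes the matrix proteoglycan decorin of fibroblasts, fell by 1.17 (SE 0.14, adjusted p = 0.00352) beside the lower summed fibroblast signal given above. Sgce, a sarcoglycan gene, fell by 0.72 (SE 0.10, adjusted p = 0.00624), Impact by 0.69 (SE 0.15, adjusted p = 0.0336) and Slc22a18, a transporter gene of the Kcnq1 domain, by 0.52 (SE 0.11, adjusted p = 0.0281). Sgce lost its call with the replicate number as a block (adjusted p = 0.0525). Impact lost its call without any 1 of 6 arrays (adjusted p up to 0.0865) and Slc22a18 without any 1 of 5 (up to 0.0825). The methods' two-sample comparison lost both (0.0985 and 0.0786), and the block lost Impact (0.104). In the domains of Igf2 and Kcnq1, 9 of the 11 genes measured did not pass, with differences between -0.40 and 0.17. In the domain of Mest, 3 of 3 did not pass, with differences between -0.14 and 0.10.

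**Figure D5:**
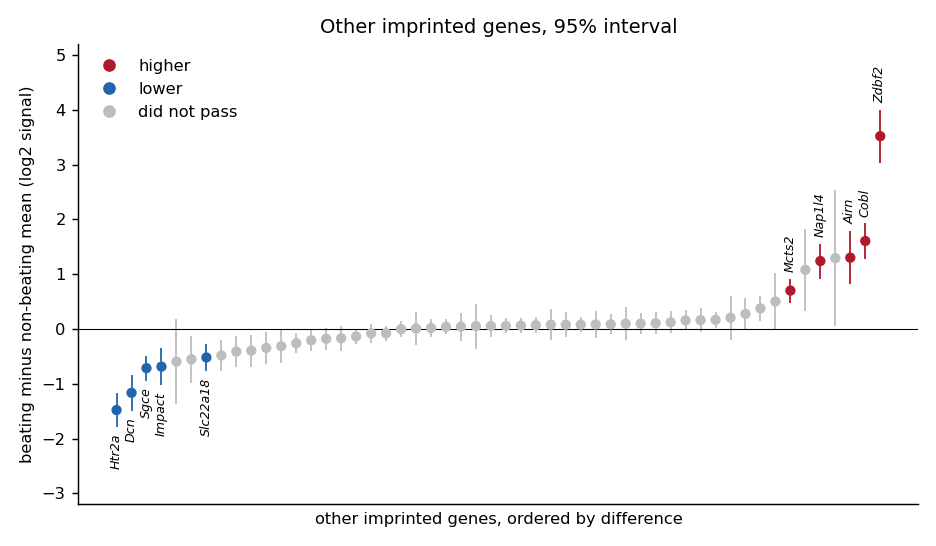
Difference between the beating and the non-beating mean in log2 signal (vertical axis) for the 52 other imprinted genes in order of size, with the 95% interval of the limma fit, not adjusted for the number of tests. Red genes rose, blue genes fell and grey genes did not pass, and Zdbf2 at 3.52 stands apart from the rest.

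Of 8 factors that keep or bind imprints, 1 rose and 7 did not pass. Over all clusters, 2.82% were called higher and 3.34% lower. Zfp57, the zinc finger protein that in the mouse guards methylation at imprinted control regions, was 3.91, 4.25, 4.44 and 4.45 in beating and 3.49, 3.88, 3.56 and 3.75 in non-beating SVF. The groups did not overlap. It rose by 0.60 (SE 0.14, adjusted p = 0.0485), a call that was lost in 12 of 16 alternative settings with adjusted p up to 0.131, among them leaving out any 1 array other than beating replicate 1.

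The round pool was described beside the groups with no test. Its median log2 signal over all clusters was 3.54, against 3.08 to 3.17 on the 8 other arrays, and the day, the cell number and the amount of RNA cannot be told apart from the cell state. Peg3 was 7.16 in the round pool, within the range of the beating replicates, and Zim1 was 4.37, also within that range. Igf2 was 6.71, which as deposited lay between the groups and nearer to beating SVF. These 3 genes exceeded the non-beating mean by 2.09, 1.64 and 3.46.

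Grb10 was 4.39 and Ndn 5.51 in the round pool, below all 8 other arrays. They lay 2.85 and 1.87 below the non-beating mean, and 24.4% of all clusters were likewise below all 8 arrays. Dlk1 at 4.62 and Cdkn1c at 4.03 lay above all 8 arrays, as 46.4% of all clusters did. Mest was 4.97 and Plagl1 4.97, both above beating replicate 1 and below all non-beating arrays.

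The clusters were sorted by their mean level over the 8 arrays into 4 bins of equal size, and the median shift of the round pool from the non-beating mean was -1.29 in the brightest bin, which held Peg3, Igf2, Grb10, Mest, Plagl1 and Ndn, and 0.19 in the bin that held Zim1, Dlk1 and Cdkn1c. Igf2 and Peg3 lay above their non-beating means, whereas the median of the brightest bin lay below. Igf2 was in that bin only through its beating arrays. Its non-beating mean of 3.25 was at the level of the bin of Zim1 (3.12 to 5.00), so no contrast with the brightest bin is drawn for Igf2. The Peg3 non-beating mean of 5.07 lay just above the lower edge of the brightest bin (5.00). Like Igf2, Zim1 was in its bin only through its beating arrays. Its non-beating mean of 2.73 was at the level of the next dimmer bin (2.32 to 3.12), where the median shift was 0.58. No contrast with either bin is drawn for Zim1. After quantile normalisation of the 9 arrays the difference from the non-beating mean was 3.07 for Peg3, 1.79 for Zim1 and 4.38 for Igf2, and it turned to 0.21 for Plagl1. The difference from the beating mean turned from -0.87 to 0.20 for Igf2, from -0.05 to 0.96 for Peg3 and from -0.40 to 0.36 for Plagl1. After median centring the difference from the non-beating mean turned from 0.29 to -0.16 for Cdkn1c. The Mir483 cluster was 7.08 in the round pool and 4.91 to 5.59 on the other 8 arrays.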

How the data were processed

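Total RNA was amplified to sense-strand cDNA, labelled with biotin and hybridised to Affymetrix Mouse Gene 1.0 ST arrays (9 arrays). The values deposited by the authors are log2 signals per transcript cluster. The authors' methods state import into BRB-ArrayTools with log2 scaling, normalisation and mean centring. How the deposited table was summarised is not given in the sources used here, and it holds no detection calls. Probes near background compress fold changes, and precision is limited by how few arrays there are.

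Clusters were named from the array annotation, with symbols updated by gene identifier. Of 33323 clusters, 21789 had 1 symbol, 1621 several and 9913 none. A gene was read from its cluster of 1 symbol, the one with the highest mean over the 8 arrays where it had several. The 4 beating and 4 non-beating arrays were compared with limma 3.58.1 (lmFit and eBayes, R 4.3.3, two-sided), with Benjamini-Hochberg adjustment over all 33323 clusters and a threshold of 0.05. The fit was tested on simulated data. The round pool entered no test.

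The text names all members, other imprinted genes that passed, genes of a member's own domain that have a cluster, the maintenance factor that passed, hosted miRNAs, and the 5 genes nearest to Peg3. Of the domain genes that did not pass, those without values of their own are given by their range. The members and lists were chosen with earlier results of these data known. Alternatives were median centring, quantile normalisation, leaving out dim clusters, a trended robust prior, array weights, the methods' two-sample test, a replicate block, a 1.5-fold prefilter, the mean of a gene's clusters and leaving out each array. Promoter and miRNA sequences are from RefSeq (GRCm38.p6). The files name no build, so no position of a cluster is given.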

Additional observations from a re-analysis of the deposited data

Results flagged for a closer look

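Within groups of 4 arrays, 5 of 50 groups tested had 1 array whose gap to the next was large for the range of the group. For independent, normally distributed values chance gives about 1 in 20. Some signals were equal or nearly so, such as 5.473, 5.477 and 5.473 for Plagl1 in non-beating replicates 1, 2 and 4. That rate therefore need not hold here. In non-beating SVF, replicate 3 was the highest for Cdkn1c at 3.923 (3.66 to 3.69 on the others) and for Plagl1 at 5.792 (5.47 to 5.48), replicate 4 was the highest for Mest at 6.933 (6.50 to 6.54), and replicate 2 was the lowest for Ndn at 7.279 (7.40 to 7.42), all as log2 signal. In beating SVF, replicate 4 was the lowest for the Mir483 cluster at 4.911 (5.48 to 5.59).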

How the results depend on the processing

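Over all clusters, 940 were higher and 1114 lower in beating SVF. The two-sample test of the methods gave 491 and 375, the replicate block 637 and 645, and leaving out 1 array gave 569 to 914 higher and 438 to 1023 lower. Median centring gave 837 and 1617, so the higher share of calls went from 45.8% to 34.1%, and it was 56.7% with the two-sample test. The members called lower went from 2 to 1 after quantile normalisation, and to 0 with the two-sample test and with the replicate block. They went to between 0 and 2 when 1 array was left out. With the 1.5-fold prefilter 1 was called lower, Grb10, because the cluster of Ndn was removed before the fit and not tested. Igf2 was called higher under every setting run. The other imprinted genes called lower went from 5 to 3 with the two-sample test and the replicate block, and to between 3 and 5 with 1 array left out. With the prefilter 3 were called lower, because the clusters of Sgce and Slc22a18 were removed before the fit. The maintenance factors called higher went from 1 to 0 under median centring, quantile normalisation, the trended robust prior, the two-sample test and the replicate block. They went to between 0 and 1 with 1 array left out. The prefilter removed the cluster of Zfp57 before the fit, so its call was not tested there. With the replicate block, the adjusted p was 0.0746 for Grb10, 0.0516 for Ndn, 0.0525 for Sgce, 0.0520 for Airn and 0.104 for Impact. With the two-sample test it was 0.128 for Grb10, 0.0822 for Ndn, 0.0547 for Airn, 0.0985 for Impact and 0.0786 for Slc22a18. The Plagl1 difference ran from -0.57 to 0.17 with 1 array left out. Deviations of same-numbered arrays correlated at -0.01 to 0.03 over all clusters, which cannot exclude that same-numbered samples shared dishes. The labels do not say whether a number marks a shared dish or lot. The limma fit did not pair the samples, and the replicate block shows what pairing by number would change. The causes of these shifts were not tested. Signals near the background of the probes, such as those of Usp29, limit what differences could be seen.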

Other observations

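A transcript cluster that the annotation gives to Mir675 and Supt6 together had one of the larger differences of the table. It was looked at after its values were seen and is assigned to neither gene. Its log2 signal was 10.53, 10.67, 10.89 and 11.27 in beating and 7.01, 7.50, 6.40 and 6.15 in non-beating SVF, with no overlap, and 6.09 in the round pool. The difference was 4.08 (SE 0.30, 95% interval 3.38 to 4.78, limma adjusted p = 0.000215). In RefSeq the hairpin of Mir675 lies inside H19, the maternally expressed noncoding RNA next to Igf2. The cluster that carries Supt6 alone differed by -0.35 (SE 0.14, adjusted p = 0.201). In the round pool this cluster lay 0.67 below the non-beating mean and just under the lowest of the other arrays, as 24.4% of all clusters lay below all 8.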
